A study of Mus musculus with 9 samples.

Results

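The 8 genes described here encode lysozyme and other proteins that phagocytes secrete against microbes: Lyz1, Lyz2, Lcn2, Saa3, S100a8, S100a9, Slpi and Camp. They were chosen by symbol, and all 8 were found among the 53700 genes of the authors' deposited table. RNA was sequenced from RAW264.7 cells, a mouse macrophage line of virally induced tumour origin (Abelson leukaemia virus). By their titles the 9 samples form 3 groups of 3, called CON, LPS and ProNa. Lipopolysaccharide (LPS) is a part of the outer membrane of Gram-negative bacteria, and the labels do not expand ProNa. One treatment text, the same for every sample, describes 24 h with or without 1 mM ProNa and then 12 h with 100 ng/mL LPS. CON is therefore read as cells given neither agent, LPS as cells given LPS, and ProNa as cells given both, the LPS last, although the labels do not say so sample by sample. No group then had ProNa alone. All groups are of a single transformed line.

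Lysozyme cuts the peptidoglycan wall of bacteria. Mice carry neighbouring copies of its gene, of which Lyz2 is the form typical of macrophages and Lyz1 that of the Paneth cells of the gut. Lcn2 encodes lipocalin 2, which binds bacterial siderophores and so withholds iron. Saa3 encodes an acute phase serum amyloid A protein made by macrophages. S100a8 and S100a9 encode the subunits of calprotectin, a protein that binds zinc and manganese. Slpi encodes an inhibitor of leukocyte proteases, and Camp the cathelicidin from which an antimicrobial peptide is cleaved. Macrophages sense LPS through Toll-like receptor 4, and several of these genes are textbook targets of NF-kB and of the C/EBP family of transcription factors.

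Because the lysozyme genes lead the results and are close copies, a stretch of their coding sequences is shown first. It covers coding bases 43 to 132, the 90-base window with the most differences, read from the GENCODE M21 transcripts ENSMUST00000092162 and ENSMUST00000092163, with the 13 differing bases in capitals.
Lyz1: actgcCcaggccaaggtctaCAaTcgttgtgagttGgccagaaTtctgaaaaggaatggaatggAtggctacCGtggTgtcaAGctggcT
Lyz2: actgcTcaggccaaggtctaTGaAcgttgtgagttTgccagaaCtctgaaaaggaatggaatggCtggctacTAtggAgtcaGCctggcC
Over the whole coding sequence, 22 of 444 bases differed, and the longest identical run was 118 bases. Of all 100-base windows of the Lyz2 transcript, untranslated parts included, 2.0% were also found in the Lyz1 transcript, and of all 50-base windows 15.4%. How reads that match both copies were divided is not stated here, so the split between Lyz1 and Lyz2 is uncertain. The StringTie assembly put 1 assembled transcript of each copy under a single locus number, and these held at most 0.286% of either gene's value.

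The regions before the start sites are shown for the 2 pairs of genes whose levels are compared below. All 4 are the 190 bases from 250 to 61 before the RefSeq start, on the minus strand of build GRCm38.p6, credited to RefSeq. All 8 members had an entry in that RefSeq table. For the lysozyme pair, at chr10:117292929-117293118 and chr10:117282333-117282522, capitals mark runs of at least 12 bases that are identical in the alignment of both.
Lyz1: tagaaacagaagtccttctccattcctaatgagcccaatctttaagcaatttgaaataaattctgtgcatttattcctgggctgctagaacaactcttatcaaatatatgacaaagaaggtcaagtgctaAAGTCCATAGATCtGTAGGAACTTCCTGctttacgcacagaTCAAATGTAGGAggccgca
Lyz2: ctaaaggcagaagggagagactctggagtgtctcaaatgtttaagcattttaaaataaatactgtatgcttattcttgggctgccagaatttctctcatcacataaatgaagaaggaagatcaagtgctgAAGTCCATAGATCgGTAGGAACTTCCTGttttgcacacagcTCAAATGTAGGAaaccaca
The 2 lysozyme regions were identical at 141 of 192 alignment positions (73.4%), and the 3 marked runs lie in the part nearest the start. For Lcn2 at chr2:32387800-32387989 and Saa3 at chr7:46715737-46715926, capitals mark matches to the motifs named next.
Lcn2: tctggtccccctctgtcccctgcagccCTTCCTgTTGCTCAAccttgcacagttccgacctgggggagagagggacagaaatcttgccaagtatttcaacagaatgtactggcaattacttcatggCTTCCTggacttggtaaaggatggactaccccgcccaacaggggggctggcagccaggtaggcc
Saa3: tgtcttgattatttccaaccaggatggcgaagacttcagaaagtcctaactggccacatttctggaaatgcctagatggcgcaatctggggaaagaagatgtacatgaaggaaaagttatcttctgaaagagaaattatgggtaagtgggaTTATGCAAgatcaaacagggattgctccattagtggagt
Searched on both strands, the C/EBP motif TTNNGCAA was found in Lcn2 and Saa3 and in 7.8% of all 32851 RefSeq promoter windows of this length. The PU.1 core AGGAAG was found in Lcn2 and in 22.7% of all windows, and it overlaps no other marked match. Of the other members, Lyz1, S100a9 and Slpi held the C/EBP motif, and Lyz1, Lyz2, S100a8 and Camp the PU.1 core. The AP-1 motif TGANTCA (5.2% of all windows) and the NF-kB consensus (3.0%) matched in none of the 8 windows. A match is a description of letters and not a site, and a missing match says only that those letters are not in this window.

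The values are the authors' group values in FPKM, which scales fragments to transcript length and to sequencing depth, summed here over the transcripts of each gene. No values could be assigned to single samples, so no SD or overlap between samples can be given, and the depth is unknown. The labels do not call the 3 samples of a group separate cultures, so the authors' p-values measure a spread that may be technical. In bulk RNA, fewer cells that express a gene and less RNA per cell cannot be told apart. The extraction text speaks of colonic segments, so marker lists were read as a check of the labelled cell line. All 10 macrophage markers were at 1 FPKM or more in every group, with sums of 4941 in CON, 3411 in LPS and 4091 FPKM in ProNa. By the authors' deposited table, 5 of them rose and 5 fell in LPS against CON. With the scaling offset described below subtracted, 3 rose and 6 fell. Of all genes tested, 28.1% were higher and 27.2% lower at an adjusted p under 0.05. In ProNa against LPS 8 markers rose and 2 fell, or 7 and 2 with the offset subtracted. The shares over all genes tested were 16.5% higher and 14.1% lower in that comparison. Csf1r, the receptor of macrophage colony-stimulating factor, had 888, 27.7 and 53.1 FPKM in CON, LPS and ProNa, and its part in the results was not tested. Of 12 neutrophil markers 8 were listed at 0 in all groups, among them Ly6g, Elane, Ltf and Ngp, and the list summed to 3.56, 1.19 and 1.57 FPKM. All 10 epithelial markers stayed under 0.3 FPKM, with Epcam and Cdh1 at 0 throughout. All 6 Paneth cell markers, such as Defa24 and Itln1, were listed at 0 in every group.

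In CON the set was almost entirely lysozyme. Lyz2 had 9719 FPKM and stood 5th by level among all genes, and Lyz1 had 1227 FPKM. The other 6 members summed to 2.59 FPKM, in the order Slpi, Saa3, S100a8 and Lcn2, with S100a9 and Camp listed at 0. In LPS the order was different. Lcn2 led with 2004 FPKM, followed by Lyz2 with 661, S100a8 with 191, Saa3 with 111, Lyz1 with 40.6 and Slpi with 22.7 FPKM. In ProNa Lyz2 was first again with 1586 FPKM, ahead of Lcn2 with 880, S100a8 with 186, Lyz1 with 155, Saa3 with 52.5 and Slpi with 19.8 FPKM. Lysozyme made up 23.1% of the members' summed FPKM in LPS and 60.5% in ProNa. Of the FPKM of all genes, the 8 members held 1.39% in CON, 0.386% in LPS and 0.363% in ProNa. Whether neighbours in these orders differ beyond their spread cannot be said without values per sample.

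**Figure D1:**
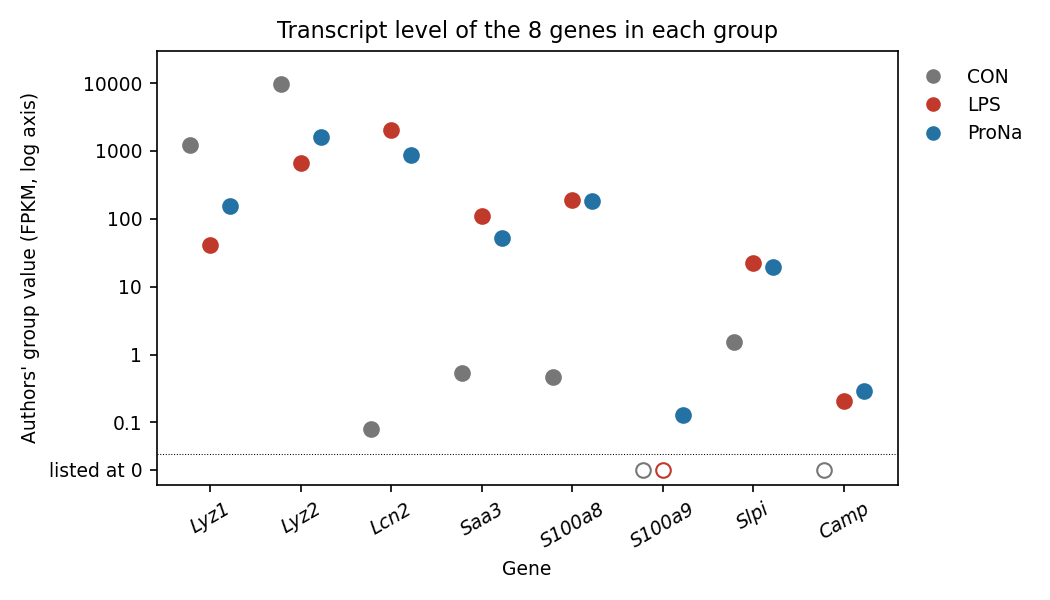
Group values of the 8 genes in FPKM on a log axis, 1 point per group, with open points on the lowest line for genes listed at 0. Lyz1 and Lyz2 are highest in CON, while Lcn2, Saa3, S100a8 and Slpi are lowest there, and S100a9 and Camp stay under 1 FPKM in every group.

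The first comparison, LPS against CON, addresses the response of the macrophages to LPS. Both lysozyme genes fell and 4 of the other members rose. Of the 8 members, 6 passed at the 0.05 level of adjusted p of the authors' deposited table, 4 higher and 2 lower in LPS, while Camp and S100a9 did not pass. The authors' deposited table lists many genes, S100a9 among them, at an adjusted p of 1, and these are taken here as outside the adjustment. Of all 17795 genes with an adjusted p under 1 in that comparison, 55.4% passed, 28.1% as higher and 27.2% as lower in LPS, and 27.9% passed with at least a 2-fold change. The median log2 fold change of the 7 members with an adjusted p under 1 was 4.51 in the authors' deposited table, beside -0.02 over all genes tested. The members were picked with earlier results known, so these shares describe them and test nothing.

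Lysozyme fell in both copies. Lyz2 (ENSMUSG00000069516) went from 9719 to 661 FPKM and was 12.2-fold lower by the authors' deposited table (adjusted p listed as 0). Lyz1 (ENSMUSG00000069515) went from 1227 to 40.6 FPKM and was 25.1-fold lower by the authors' deposited table (adjusted p listed as 0). Lyz1 lay at the 1.5 percentile of the log2 fold changes of all genes tested and Lyz2 at the 3.4 percentile. Lyz1 made up 11.2% of the lysozyme FPKM in CON and 5.79% in LPS, a ratio of Lyz2 to Lyz1 of 7.92 and 16.3. Whether the copies changed by different amounts was not tested. The reference transcript of each copy carried at least 99.7% of its value in all groups.

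Lipocalin 2 and serum amyloid A 3 were near the floor in CON and rose in LPS. Lcn2 (ENSMUSG00000026822) had 0.08 FPKM in CON and 2004 FPKM in LPS, where it ranked 33rd among all genes. Its log2 fold change in the authors' deposited table was 14.89, with an adjusted p of 1.6e-69, and with CON near 0 its size is loosely set. A standard error of 0.837 was derived here from the deposited p, taking it as a two-sided normal test of the fold change. Saa3 (ENSMUSG00000040026) had 0.527 and 111 FPKM, with the authors' deposited table giving a log2 fold change of 7.97 (derived standard error 0.509, adjusted p = 4.3e-54). The other serum amyloid A genes were nearly silent, with Saa1 and Saa2 listed at 0 and Saa4 under 0.3 FPKM in every group. The main transcript ENSMUST00000050785 carried 98.0% of the Lcn2 value in LPS, and ENSMUST00000006956 carried 97.1% of that of Saa3.

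Only 1 of the calprotectin genes was found at a level above 1 FPKM. S100a8 (ENSMUSG00000056054) went from 0.46 to 191 FPKM, with the authors' deposited table giving a log2 fold change of 8.95 (derived standard error 0.613, adjusted p = 3.4e-47). S100a9 (ENSMUSG00000056071), whose protein pairs with that of S100a8, was listed at 0 in CON and in LPS. It had 0.127 FPKM in ProNa, and the authors' deposited table lists its adjusted p as 1 in all 3 comparisons. The S100a9 value in ProNa came from 1 transcript, ENSMUST00000069960, and its other annotated transcript was listed at 0 throughout.

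The protease inhibitor rose from a low level and cathelicidin stayed near the floor. Slpi (ENSMUSG00000017002) went from 1.52 to 22.7 FPKM and was 22.8-fold higher by the authors' deposited table (adjusted p = 1.5e-52, derived 95% interval 15.3 to 33.9). The ratio of its FPKM was lower, at 15.0-fold. In the GENCODE M21 annotation Slpi overlaps the microRNA gene Mir7678 on the same strand, and no other member overlaps another gene. Camp (ENSMUSG00000038357) was listed at 0 in CON and had 0.207 FPKM in LPS, and did not pass in the authors' deposited table (adjusted p = 0.17).

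**Figure D2:**
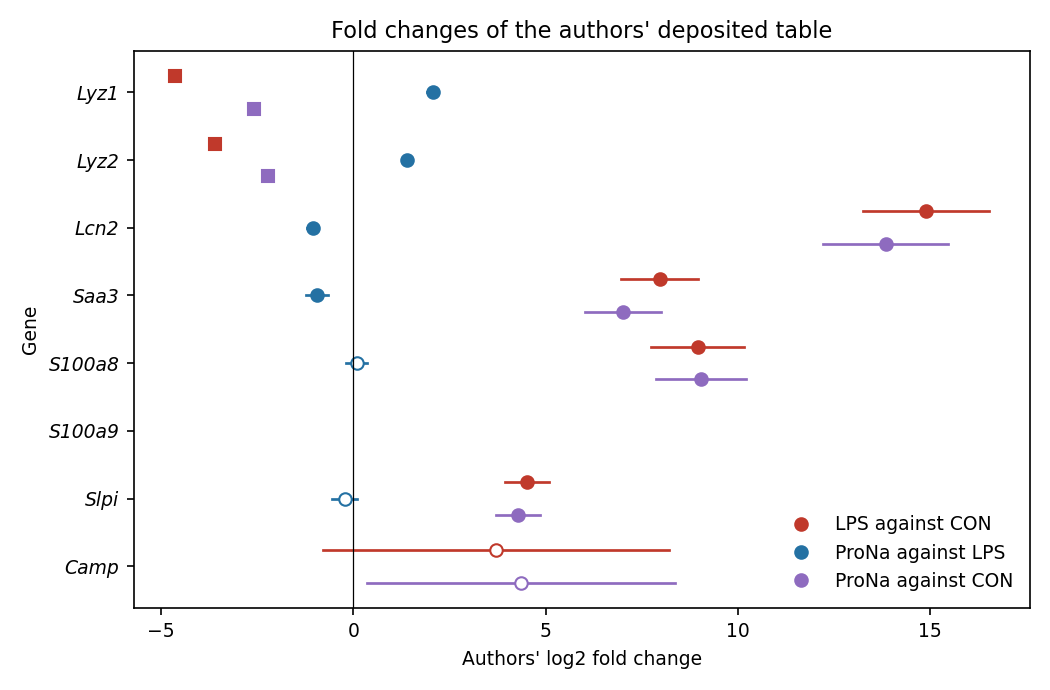
Log2 fold changes of the authors' deposited table for the members with an adjusted p under 1, with bars for the 95% interval derived from the deposited p. Squares have a p listed as 0 and no interval, open points did not pass an adjusted p of 0.05, and some intervals are narrower than the point. The lysozyme genes lie left of 0 in both comparisons with CON and right of 0 in ProNa against LPS.

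The second comparison, ProNa against LPS, addresses how cells given ProNa before LPS differed from cells given LPS alone. Lysozyme was higher and Lcn2 and Saa3 were lower in ProNa. Of the 8 members, 4 passed at the same level by the authors' deposited table, 2 higher and 2 lower, 2 did not pass, and Camp and S100a9 were listed at an adjusted p of 1. Of all 12732 genes with an adjusted p under 1, 30.6% passed, 16.5% as higher and 14.1% as lower in ProNa, and 3.25% passed with at least a 2-fold change. The median log2 fold change of the 6 members with an adjusted p under 1 was -0.07 in the authors' deposited table, beside 0.00 over all genes tested. This comparison shares the LPS samples with the first, so a value that was by chance high or low in LPS moves both.

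Lyz1 stood at 40.6 FPKM in LPS against 155 FPKM in ProNa, and was 4.18-fold higher by the authors' deposited table (derived 95% interval 3.77 to 4.64, adjusted p = 3.1e-154). Lyz2 had 661 and 1586 FPKM, and was 2.63-fold higher by the authors' deposited table (derived 95% interval 2.41 to 2.86, adjusted p = 2.1e-101). Among the fold changes of all genes tested, Lyz1 lay at the 99.7 percentile and Lyz2 at the 98.8 percentile. Both stayed below their CON levels. The share of Lyz1 in the lysozyme FPKM was 8.91% in ProNa. In all 3 groups Lyz2 was the more abundant copy, per length.

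Lcn2 stood at 2004 FPKM in LPS against 880 FPKM in ProNa, and was 2.08-fold lower by the authors' deposited table (adjusted p = 1.0e-41). Saa3 had 111 and 52.5 FPKM and was 1.94-fold lower by the authors' deposited table (adjusted p = 8.6e-10). Their log2 changes were -1.06 and -0.95 with derived standard errors of 0.076 and 0.145, at the 1.2 and 1.8 percentiles of all genes tested. The order of Lcn2 and Lyz2 differed between the groups: the ratio of Lcn2 to Lyz2 FPKM was 3.03 in LPS and 0.555 in ProNa.

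S100a8 and Slpi did not pass in this comparison. S100a8 had 191 and 186 FPKM, with the authors' deposited table giving 0.09 on the log2 scale (adjusted p = 0.71). The derived 95% interval of its fold was 0.876 to 1.28, and its sign turned to -0.05 once that scaling offset was subtracted. Slpi had 22.7 and 19.8 FPKM, the authors' deposited table giving -0.23 on the log2 scale (adjusted p = 0.32), with a derived interval of 0.682 to 1.07-fold. Within Slpi, the transcript ENSMUST00000165980 of 488 bases had 0.567 and 3.60 FPKM in LPS and ProNa, 2.5% and 18.2% of the gene's value, and the main transcript ENSMUST00000109367 had 21.3 and 15.8 FPKM. Single transcripts were not tested.

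The third comparison, ProNa against CON, sets cells read as given both agents beside cells given neither. It shares samples with both others and is given beside them. By the authors' deposited table, 6 members passed, 4 higher and 2 lower in ProNa. Of all 18540 genes with an adjusted p under 1, 54.4% passed, 27.7% as higher and 26.6% as lower, and 27.1% with at least a 2-fold change. Lyz1 was 5.97-fold and Lyz2 4.63-fold lower by the authors' deposited table, each with an adjusted p listed as 0. The log2 fold changes of the authors' deposited table were 13.84 for Lcn2, 7.02 for Saa3, 9.04 for S100a8 and 4.29 for Slpi. Camp, at 0.293 FPKM in ProNa, did not pass by the authors' deposited table (adjusted p = 0.06, unadjusted p = 0.033).

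**Figure D3:**
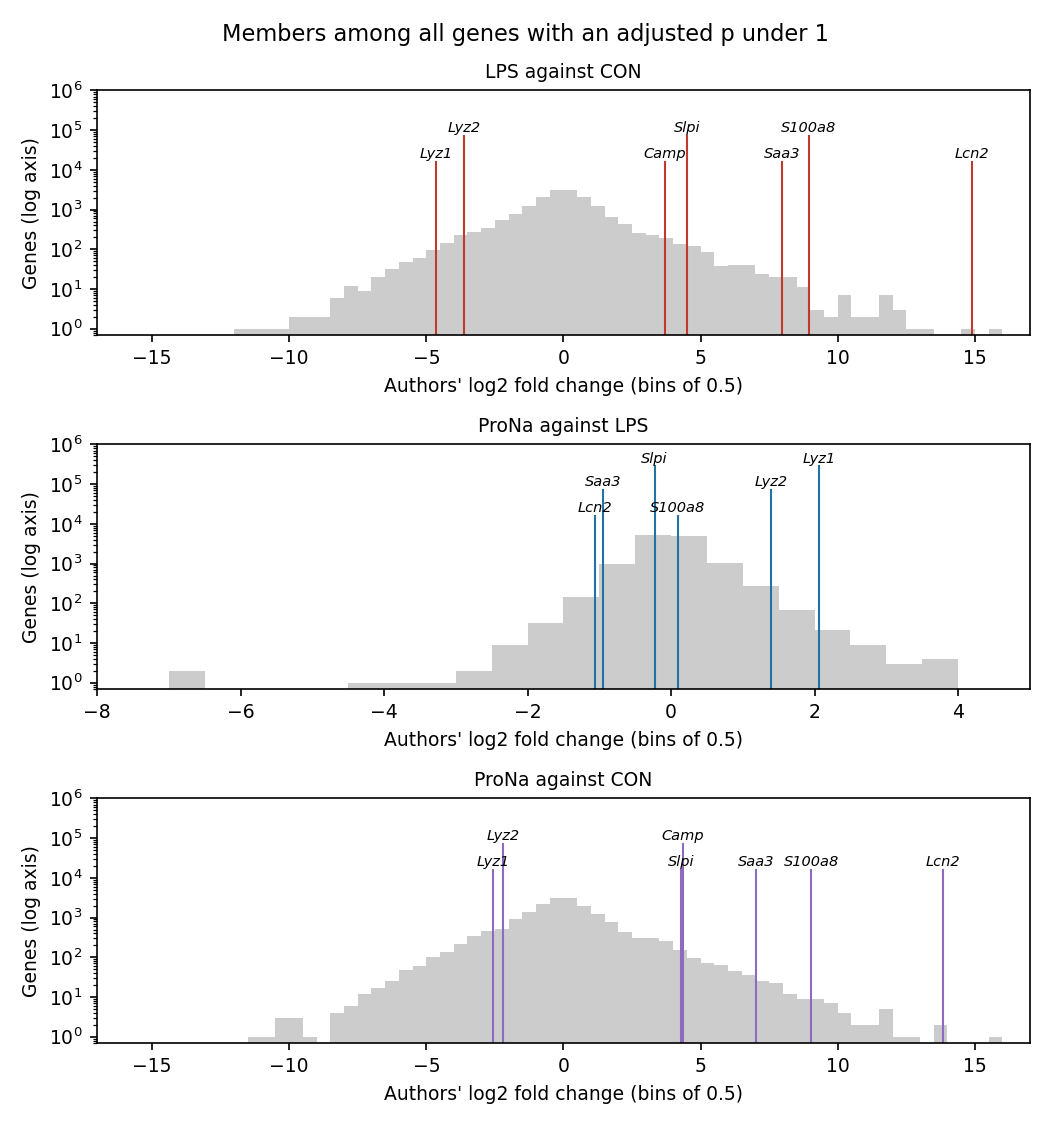
Histograms of the log2 fold changes of the authors' deposited table for all genes with an adjusted p under 1, in bins of 0.5 with a log count axis, 1 panel per comparison, with a line for each member. The middle panel has a narrower x axis. Lyz1 and Lyz2 lie on the low side in both comparisons with CON and on the high side in ProNa against LPS, where Lcn2 and Saa3 lie on the low side.

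The scale of the fold changes matters for small ones. Compared with the log2 ratios of the group FPKM, those of the authors' deposited table were higher by a median of 0.26 for LPS against CON, 0.13 for ProNa against LPS and 0.40 for ProNa against CON. With this offset subtracted and p derived again, the share of higher calls among all calls went from 50.8% to 37.4%, from 53.9% to 29.4% and from 51.0% to 31.9%. The members that passed kept their direction and passed again. Their log2 fold changes in ProNa against LPS became 1.93 for Lyz1, 1.26 for Lyz2, -1.19 for Lcn2 and -1.08 for Saa3.

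Relatives of the members by name were read next. Of the 14 S100a genes, 13 had an adjusted p under 1 in LPS against CON. Beside 28.1% higher and 27.2% lower over all genes tested, 3 S100a genes rose and 4 fell in the authors' deposited table. With the offset subtracted, 2 rose and 5 fell. S100a4, a calcium-binding protein linked to cell motility, was the most abundant S100a gene in CON. It went from 7256 to 468 FPKM in LPS and 872 FPKM in ProNa. S100a6 had 1300.5, 498 and 840 FPKM and S100a11 had 728, 1420 and 2084 FPKM in CON, LPS and ProNa. In ProNa against LPS 7 of the S100a genes had an adjusted p under 1. Of these, 4 were higher and 0 lower by the authors' deposited table, also with the offset subtracted: S100a4, S100a6, S100a10 and S100a11. Among all genes tested there, 16.5% passed as higher and 14.1% as lower. S100a1 and S100a13 were highest in CON, at 126 and 67.2 FPKM, and S100a3 had at most 2.67 FPKM. Of the S100a genes above 100 FPKM in LPS, S100a8 was the 1 gene under 1 FPKM in CON. Of the 18 genes named Wfdc, which like Slpi encode proteins with whey acidic protein domains, 12 were listed at 0 in every group. Wfdc17 was abundant, at 106, 1481 and 1235 FPKM in CON, LPS and ProNa. In the authors' deposited table it was 16.8-fold higher in LPS against CON, and its log2 fold change of -0.13 in ProNa against LPS did not pass (adjusted p = 0.25). With the offset subtracted, Wfdc17 passed as lower in that comparison, at -0.26. No lysozyme relative besides Lyz1 and Lyz2 reached 1 FPKM. Lyzl4, near the floor, was listed at 0 in CON and had 0.427 FPKM in ProNa. Unlike Lyz1 and Lyz2 it passed as higher in ProNa against CON, at 5.26 on the log2 scale in the authors' deposited table (adjusted p = 0.0052).

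**Figure D4:**
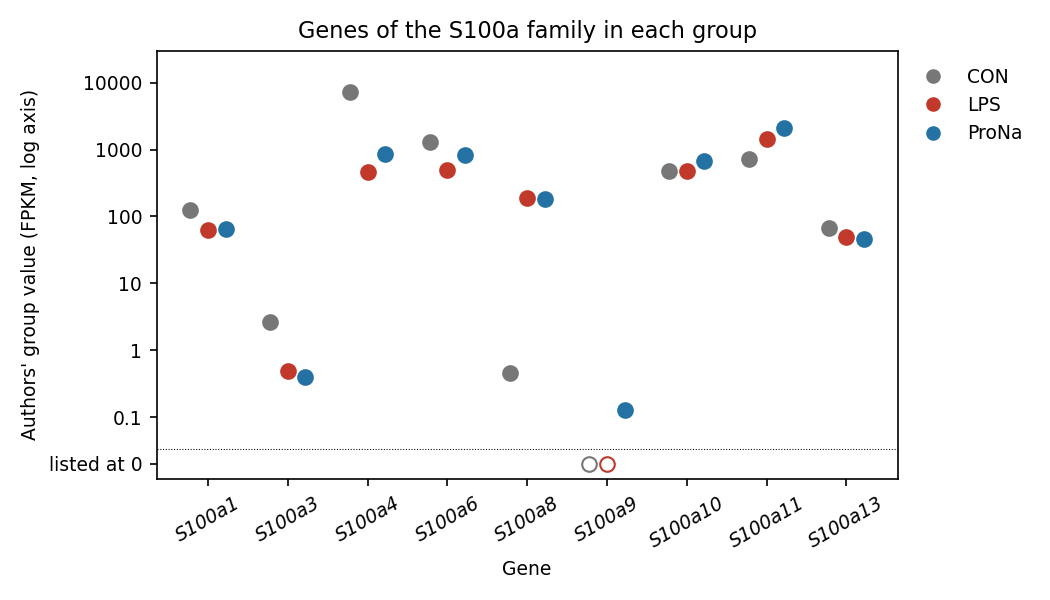
Group values in FPKM, on a log axis, of the S100a genes that reached 1 FPKM in any group, and of S100a9, with open points for values listed at 0. S100a8 is the gene with the widest gap between CON and the other groups, and S100a4 is highest in CON.

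Other secreted antimicrobial and acute phase proteins, a list of 38 genes, were mostly silent: 27 stayed under 0.3 FPKM in all groups, and 21 were listed at 0, among them Ltf, Bpi, Chil3 and Reg3g. Only 13 had an adjusted p under 1 in LPS against CON, of which 3 rose and 4 fell in the authors' deposited table. The shares over all genes tested were 28.1% higher and 27.2% lower. The median of the list was 0.09 on the log2 scale beside -0.02 over all genes tested. Pla2g5, a secreted phospholipase, had 5.04, 136 and 70.3 FPKM in CON, LPS and ProNa. It was 32.2-fold higher in LPS against CON in the authors' deposited table and was the 1 gene of 7 that passed in ProNa against LPS, at -0.79 on the log2 scale (adjusted p = 2.0e-35). Of all genes tested in that comparison, 30.6% passed. The order of the Pla2g5 levels, CON lowest and LPS highest, is also that of Lcn2, Saa3, S100a8 and Slpi. Wfdc17 and Wfdc18 have it too, among others of this list. Of these genes, Pla2g5, Lcn2 and Saa3 passed as lower in ProNa against LPS by the authors' deposited table. Wfdc18 also rose with LPS, from 0.15 to 2.29 FPKM. Rnase4, a secreted ribonuclease, went from 29.4 to 6.74 FPKM in LPS and had 5.49 FPKM in ProNa, and Hp, which encodes haptoglobin, went from 1.28 to 0.11 FPKM in LPS. Ang and Adm were the other genes of this list that fell with LPS. In ProNa against CON 4 of 14 genes rose and 3 fell in the authors' deposited table, or 3 and 3 with the offset subtracted. The deposited shares over all genes tested were 27.7% higher and 26.6% lower. The 4 include C3, at 2.67 FPKM in CON and 2.62 FPKM in ProNa, and Lyzl4, at 0 and 0.427 FPKM.

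Receptors and partner proteins of the members went both ways. Of 15 genes, 12 had an adjusted p under 1 in LPS against CON. Of these, 6 rose and 4 fell in the authors' deposited table (5 and 4 with the offset subtracted). The deposited shares over all genes tested were 28.1% higher and 27.2% lower. Mmp9, a gelatinase that lipocalin 2 binds in human neutrophils, had 0.133, 12.6 and 8.54 FPKM in CON, LPS and ProNa. It passed as lower in ProNa against LPS, with the authors' deposited table giving -0.39 on the log2 scale (adjusted p = 9.8e-04). Fpr2, a formyl peptide receptor that also binds serum amyloid A and cathelicidin, had 0.18, 5.37 and 22.7 FPKM. In ProNa against LPS it was 4.59-fold higher by the authors' deposited table (adjusted p = 3.5e-34). Fpr2 thus stood highest in ProNa, unlike Mmp9, which stood highest in LPS. The related Fpr1 was listed at 0 in CON, at 0.68 FPKM in LPS and at 1.5 FPKM in ProNa. Tlr4, the LPS receptor, at which S100a8 also acts, had 27.3, 15.6 and 15.1 FPKM. Its log2 fold change in ProNa against LPS was 0.02 by the authors' deposited table (adjusted p = 0.91). Scarb1, a lipoprotein receptor, went from 71.4 to 14.4 FPKM in LPS and had 14.7 FPKM in ProNa. Tlr2, a receptor of bacterial lipoproteins, had 87.1, 28.2 and 27.1 FPKM in the same order of groups. Tlr2, Tlr4 and Scarb1 thus all stood highest in CON. P2rx7, an ATP receptor, had 14.0, 20.7 and 12.3 FPKM, Plscr1, a phospholipid scramblase, 5.83, 12.4 and 9.15 FPKM, and Bsg, a membrane glycoprotein that binds S100a9, 247, 258 and 296 FPKM. The proteases Elane, Prtn3 and Ctsg, which Slpi inhibits or which process cathelicidin, were listed at 0 in all groups. In ProNa against LPS 3 of 10 genes rose and 3 fell in the authors' deposited table, or 2 and 3 with the offset subtracted. All genes tested had deposited shares of 16.5% higher and 14.1% lower.

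Transcription factors known at promoters of such genes were all measured. Of 11 factors, 10 rose and 1 fell in LPS against CON in the authors' deposited table, beside 28.1% and 27.2% of all genes tested. The median was 0.98 on the log2 scale beside -0.02 over all genes tested. With the offset subtracted, 9 factors rose and 1 fell. Nfkbiz, a nuclear co-activator of NF-kB, had 5.10, 37.6 and 36.3 FPKM in CON, LPS and ProNa. Cebpb had 14.3, 94.8 and 55.4 FPKM and was lower in ProNa against LPS, with the authors' deposited table giving -0.64 on the log2 scale (adjusted p = 4.6e-11). Cebpd had 8.35, 18.8 and 19.4 FPKM and Cebpe 5.69, 17.6 and 17.7 FPKM, and neither passed in ProNa against LPS (0.11 and 0.52 as adjusted p by the authors' deposited table). Of the C/EBP genes, Cebpb was the 1 with a lower level in ProNa than in LPS. Cebpa, a factor of myeloid differentiation, was the 1 that fell with LPS, from 12.8 to 3.10 FPKM, and had 3.99 FPKM in ProNa. Of the NF-kB subunit genes, Rela had 32.5, 55.7 and 44.8 FPKM and Relb 10.6, 14.9 and 15.1 FPKM. Stat3 had 18.3, 31.9 and 29.0 FPKM, and Hif1a, with 30.1, 29.9 and 31.2 FPKM, varied least in level of the factors. Spi1, which encodes PU.1, a lineage factor of macrophages, had 257, 329 and 351 FPKM. Nfkb1 had 54.8, 71.8 and 99.2 FPKM and was 1.54-fold higher in ProNa against LPS by the authors' deposited table (adjusted p = 5.6e-20). In that comparison 4 factors were higher and 1 lower by the authors' deposited table, but 1 higher and 2 lower with the offset subtracted. The deposited shares over all genes tested were 16.5% higher and 14.1% lower. RNA levels of these factors say nothing of their activity, and their part in the members' changes was not tested.

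Other genes moved in much the same way as single members. Likeness was the distance between the pairs of log2 fold changes of the first and second comparisons, over 11724 other genes with at least 1 FPKM in some group and an adjusted p under 1 in both. It rests on the authors' deposited fold changes between 3 groups, and both comparisons share the LPS samples. The nearest genes to Lyz2 were Mnd1 (distance 0.09), Cysltr1 (0.18) and Fhit (0.27), all at far lower levels of at most 13.8 FPKM. For Lyz1 they were Naaladl2 (0.62), Nfix (0.68) and Aldh1l1 (0.79). The nearest gene to Saa3 was Car6 (0.03), with 0.19, 36.2 and 17.4 FPKM in CON, LPS and ProNa, ahead of Gm44658 (0.25) and Gm50143 (0.37). Gm44658 and Gm50143 were listed at 0 in CON. The standard error derived for the Saa3 log2 fold change in LPS against CON, 0.509, is larger than these distances, so their order is not firm. For Lcn2 the closest were Csf3 at a distance of 1.31, then Sstr5 (2.12) and Edn1 (2.19). In CON, Lcn2 had 0.08 FPKM and Csf3 0.0167 FPKM, and Sstr5 and Edn1 were listed at 0. With CON so near 0, the folds of these genes, and so the distances, are loosely set. For S100a8 the nearest genes were Ptgs2os (0.37), Acod1 (0.45) and Scg2 (0.47), of which Scg2 was listed at 0 in CON. For Slpi they were Slc40a1 (0.07), Tnfrsf1b (0.14) and Rhpn2 (0.14). Tnfrsf1b, a receptor of tumour necrosis factor, had 12.8, 256 and 190 FPKM.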

How the data were processed

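The submitters' processing notes name the build GRCm39 and the tools HISAT2, StringTie and DESeq2. Versions, aligner settings and strand handling are not given in the sources used here. The authors deposited FPKM per transcript, with columns CON, LPS and ProNa used here as the authors' group values, and 9 columns per library, named as no label names them, that were not used. The authors' deposited table gives, per the file headers, for 53700 genes and 3 comparisons a fold (ratio), its log2, and p-values before and after adjustment. Of 3 files 2 were used.

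FPKM were summed by gene identifier over 153363 transcripts. Calls are the authors' adjusted p under 0.05. Genes deposited at an adjusted p of 1 were taken here as left out of the adjustment. A Benjamini-Hochberg adjustment over the others differed from the deposited values by at most 1.5e-12. The planned limma fit needs values per sample and was not run. Standard errors and 95% intervals assume that each deposited p is a two-sided normal test. The members, lists and rules were chosen with earlier results of these data known. Named genes are the 8 members, list genes that passed with the largest changes (up to 4 per list and comparison) or reached 10 FPKM, name relatives, and the 3 nearest patterns. Genes listed at 0, and Csf1r among the marker lists, were named as examples after their values were seen. Ang, Adm and C3 were also named outside these rules. Coordinates are those of the RefSeq tables (GRCm38.p6), not of the authors' build. Python 3.11.15, pandas 2.3.3, SciPy 1.17.1 and Biopython 1.88 were used.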

Additional observations from a re-analysis of the deposited data

How the results depend on the processing

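No paired analysis was possible because no column of values per library carries a sample's name, and for the same reason no replicate could be left out. Under every alternative tried (at least 2-fold, genes with at least 1 FPKM, the offset subtracted, and FPKM ratios with pseudocounts of 0.1, 0.5 and 1 counted at 2-fold), the number of members called in each comparison stayed within 1.5 times. With FPKM ratios, which have no test, and a pseudocount of 0.1, members past 2-fold numbered 7, 5 and 8 in the 3 comparisons as ordered in the text, with Camp at 1.62 and 1.98 on the log2 scale in the comparisons with CON. The counts of 5 and 8 also include S100a9, at 1.18 in both comparisons of ProNa, from 0.127 FPKM in ProNa against 0. Both Camp and S100a9 lie near the floor. S100a9 was otherwise not followed singly, being listed at an adjusted p of 1. Saa3 in ProNa against LPS, at -0.95, lost its call when 2-fold was required. S100a8 in ProNa against LPS reversed to -0.05 with the offset subtracted and to -0.04 as an FPKM ratio with each pseudocount. With 2-fold required, the calls in ProNa against LPS went to 0 of the other secreted proteins, 2 of the receptors and partners and 0 of the transcription factors, and in LPS against CON to 6 of the transcription factors. With the offset subtracted, a setting chosen after seeing the data, 2 other secreted proteins and 3 transcription factors were called in ProNa against LPS. Reference transcripts alone gave 0.9 to 1.0 times the members' levels, and scaling each group to TPM 1.26 to 1.28 times. Depth is unknown, and values near 0 FPKM in CON limit the folds of Lcn2, Saa3 and S100a8.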
